A study of Homo sapiens with 4 samples.

Results

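The genes described are 10 that drive or restrain the passage of a cell from G1 into S phase: the D-type cyclins CCND1, CCND2 and CCND3, the E-type cyclins CCNE1 and CCNE2, the kinases CDK4 and CDK6, and the CDK inhibitors CDKN1A (p21), CDKN1B (p27) and CDKN2C (p18). They were taken by symbol from the 16834 genes of the expression table, and all 10 were found. RNA was sequenced on the BGISEQ-500 platform from cells labelled MIA PaCa-2, an established human pancreatic ductal adenocarcinoma (PDAC) line. The 4 libraries were a control, NBT at 1 µM, trametinib at 5 µM, and NBT at 1 µM together under trametinib at 5 µM (the combination), all at 12 h. NBT is neobractatin, a natural compound of Garcinia bracteata, and trametinib inhibits the MAPK kinases MEK1 and MEK2. The comparisons ask what each drug did alone, what both did together and what each added to the other. The genotype was labelled wild type in all 4, and the labels do not say what the control cells received. There was 1 library in each condition, so no difference has a replicate check, every test compares libraries and not conditions, and every interval covers counting error only.

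In G1, D-type cyclins bind CDK4 and CDK6, and cyclin E binds CDK2. Both kinds of complex phosphorylate the retinoblastoma protein, which releases E2F factors to switch on the genes of DNA replication. INK4 inhibitors such as p18 bind CDK4 and CDK6 alone, whereas the CIP/KIP inhibitors p21 and p27 bind complexes of cyclin and CDK. Growth factor signals through MEK raise CCND1 transcription in many cell types.

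The library sums were between 18776247 and 19614809 estimated counts, so a count of 3, taken as the limit below which nothing can be said, was between 0.153 and 0.160 CPM. Outputs of the MAPK pathway (DUSP4, DUSP6, SPRY2, SPRY4, SPRED1, ETV4, ETV5, PHLDA1, EGR1 and FOSL1) fell in 10 of 10 cases in both libraries labelled with trametinib. By the 2-fold rule given below, 6.13% of all genes were called under trametinib and 8.72% under the combination, in either direction. In the combination against trametinib alone, SPRY2 (log2 1.03) and FOSL1 (1.61) were called higher, beside 6.37% of all genes. There, 7 of the 10 lay above 0 and 3 below. Under NBT alone against the control, 7 of the 10 also lay above 0 and 3 below. Of these, ETV5 was called higher (log2 1.03), beside 2.76% of all genes. Several values did not match what is known of MIA PaCa-2, a line with a homozygous deletion around CDKN2A and MTAP, low E-cadherin and high vimentin. CDKN2A had 2643, 2674, 3524 and 3187 counts in the control, NBT, trametinib and combination libraries, and between 69.5% and 76.9% of its TPM lay on NM_058195.3, the transcript that codes for ARF. MTAP, looked up after its values were seen, had between 815 and 1151 counts. CDH1 (E-cadherin) was at 51.2 to 86.9 TPM, EPCAM at 209 to 242 TPM and VIM (vimentin) at 11.5 to 26.4 TPM. Among the other epithelial markers, KRT8 was at 1493 to 3799 TPM and KRT18 at 995 to 3142 TPM. KRT7 was only at 2.25 to 5.74 TPM, and KRT19 was absent from the expression table. Of the other mesenchymal markers, ZEB1 was at 1.04 to 2.61 TPM and CDH2 had at most 3 counts. The cell line field of the labels also differs between libraries, from MIA PaCa-2 to MIA PaCa-5. The libraries are therefore called by their treatment labels throughout. Of the markers of other cell types fixed for the check, 17 of 24 markers (the epithelial and mesenchymal ones included) were in the table, and CDH5, PDGFRB and CPA1 had at most 2 counts in any library. PTPRC, the pan-leukocyte marker, had 8 to 17 counts, and CD3E, a T cell marker, had 0, 0, 55 and 29. CD68, a lysosomal protein used as a macrophage marker but not limited to macrophages, had 2054, 2400, 1503 and 1695. PECAM1 (endothelial) had 14 to 26 counts, VWF (endothelial) 3, 4, 25 and 6, and COL1A1 (fibroblast) 45, 27, 98 and 53. CD3E, VWF and COL1A1 were called higher under trametinib, and CD3E also under the combination. Among epithelial and mesenchymal markers, KRT18 was called lower under trametinib (log2 -1.56), KRT8, KRT18 and KRT7 lower under the combination (-1.31, -1.62 and -1.27), and VIM higher under trametinib and the combination (1.06 and 1.24). In the combination against trametinib alone, ZEB1 was called higher (log2 1.01) and VWF lower (-2.02), with 6.37% of all genes called. In the combination against NBT alone, KRT8, KRT18 and KRT7 were called lower (-1.11, -1.46 and -1.11) and CD3E higher. The share of all genes called in the latter was 4.54%. The part of these shifts in the results that follow was not tested.

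Levels of RNA were compared between genes in TPM, which is scaled to length. CDK4 was the most abundant of the 10 transcripts in all 4 libraries and CCNE1 the least abundant. CCND1 stood in 2nd place in the control and NBT libraries and in 8th place in the trametinib and combination libraries. CDKN1A moved the other way, from 7th in the control and 5th under NBT to 2nd in both libraries with trametinib. The 95% Poisson intervals of neighbours in the order overlapped for CDKN1B with CDKN1A and CDKN1A with CDKN2C in the control, for CCND3 with CDKN1A under NBT, for CDKN1B with CCND3, CCND3 with CDKN2C and CCND2 with CDK6 under trametinib, and for CDKN1B with CCND3, CDK6 with CCND2 and CCND1 with CCNE2 under the combination. All other neighbours differed beyond counting error.

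**Figure D1:**
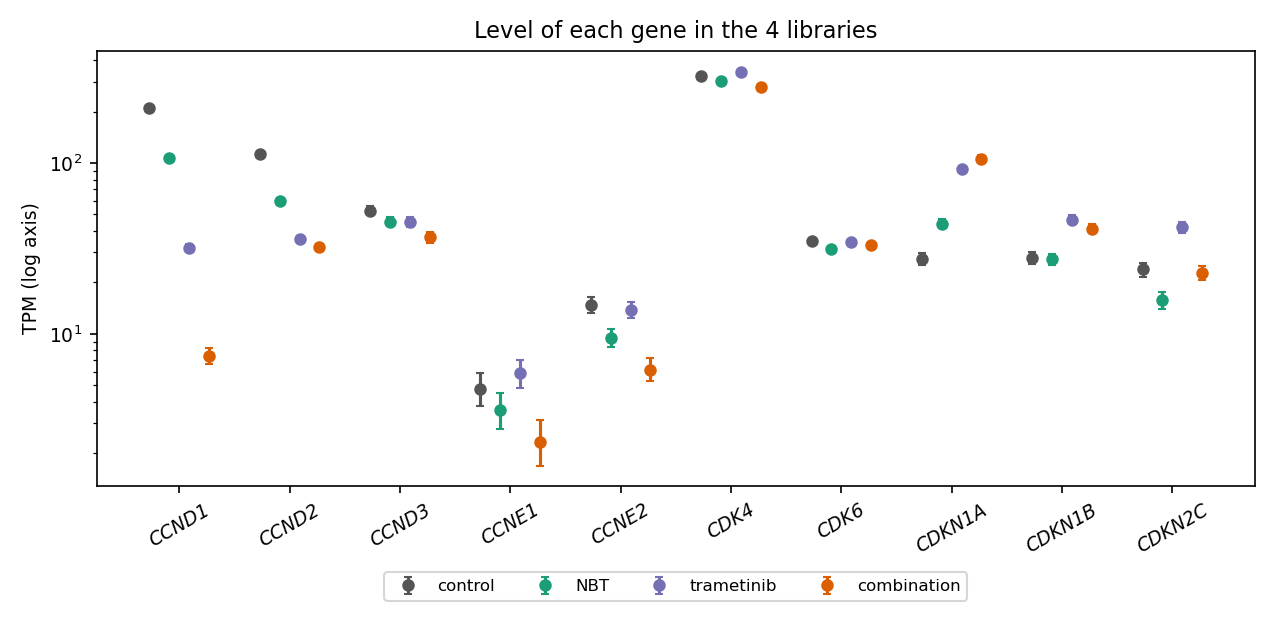
TPM (log axis) of each of the 10 genes in the control, NBT, trametinib and combination libraries, with 1 library per point and 95% Poisson counting intervals as bars. CCND1 ran from 209.67 TPM in the control to 7.45 TPM in the combination, CDKN1A rose from 27.44 to 106.25 TPM, and CDK4 and CDK6 lay almost level.

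A change was called when 2 libraries differed by at least 2-fold and the difference passed an exact binomial test (two-sided) at a false discovery rate of 0.05 over all genes. Against the control, NBT alone changed 0 of the 10 genes by this rule, while 2.76% of the 15891 genes tested were called. At a limit of 1.5-fold it changed 4 of 10 (CCND1, CCND2 and CDKN2C lower, CDKN1A higher), with 7.07% of all genes called. Trametinib alone changed 3 of 10 (CCND1 and CCND2 lower, CDKN1A higher), with 6.13% of 16199 genes called. At 1.5-fold it changed 5 of 10, CDKN1B and CDKN2C (both higher) being added, with 12.4% called. The combination changed 4 of 10 (CCND1, CCND2 and CCNE2 lower, CDKN1A higher), with 8.72% of 16233 genes called. At 1.5-fold it changed 6 of 10, CCNE1 (lower) and CDKN1B (higher) being added, with 19.2% called. Over the 10 genes, the median log2 fold change was -0.25 under NBT, 0.06 under trametinib and -0.32 under the combination, beside -0.01, 0.08 and 0.05 over all genes tested. These 3 comparisons share the control library, so an error in it would move all of them alike. In bulk RNA, fewer cells that express a gene and less RNA of it per cell cannot be told apart. If cultures are assumed to vary with a coefficient of variation of 0.2 (negative binomial exact test), CCNE2 is no longer called in the combination against the control. At 0.4, CCND1 in the combination is the 1 call left among the 10 genes in these 3 comparisons.

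**Figure D2:**
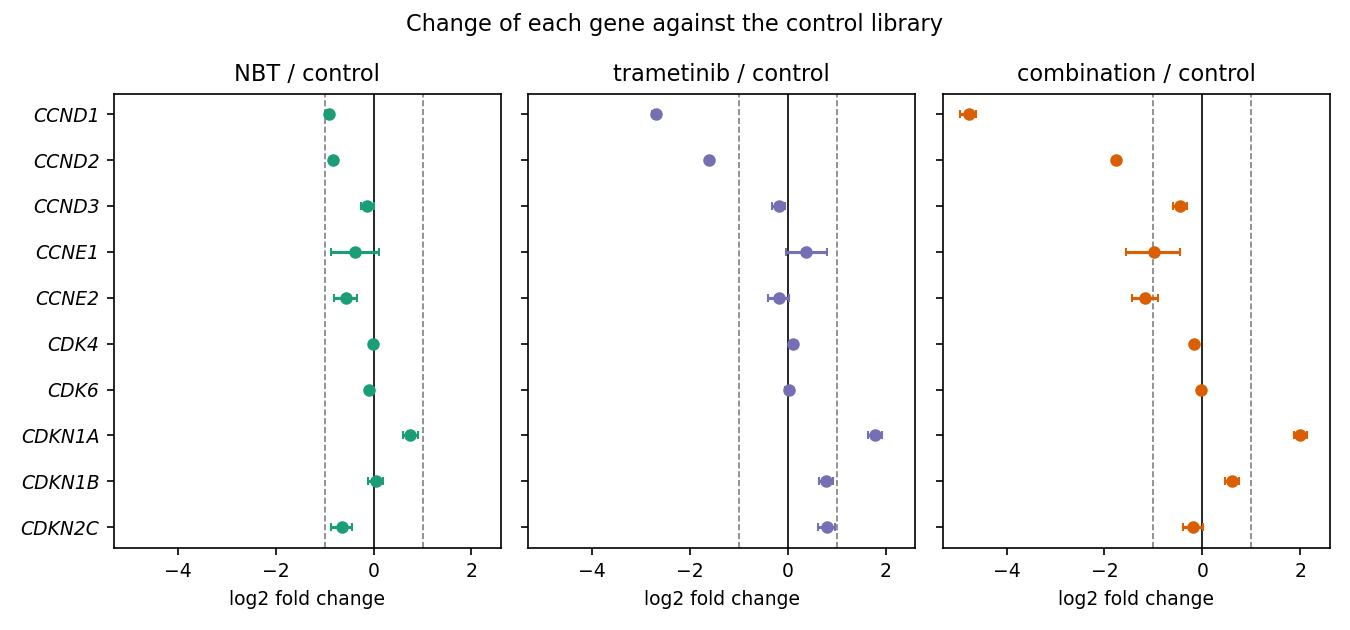
Log2 fold change of each gene against the control library for NBT, trametinib and the combination (1 library each), with 95% counting intervals and dashed lines at a 2-fold change. CCND1 lies farthest left in every panel, at -0.90, -2.70 and -4.77, and CDKN1A farthest right in the trametinib and combination panels, at 1.78 and 2.0.

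CCND1 and CCND2 carried the changes in the D-type cyclins, and CCND3 did not pass the limit in any comparison. CCND1 (cyclin D1, gene 595, GRCh38.p14 chromosome 11, 69641156 to 69654474, plus strand) had 8472 counts in the control, 4693 under NBT, 1315 under trametinib and 323 under the combination. Each library was below the one before it in that list, and no counting interval of its TPM overlapped another. Under NBT alone it was 1.87-fold lower (log2 -0.90, 95% interval -0.95 to -0.85), short of the 2-fold limit. It fell 6.50-fold under trametinib (log2 -2.70, -2.79 to -2.62) and 27.4-fold under the combination (log2 -4.77, -4.94 to -4.62). The level went from the 95.6th percentile of all genes in the control to the 46.3rd in the combination library.

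CCND2 (cyclin D2, gene 894, chromosome 12, 4273762 to 4305353, plus strand) had 6976, 4052, 2308 and 2151 counts in the same order. It was the second most abundant D cyclin in the control, and its libraries with trametinib were close to each other. NBT alone gave a log2 fold change of -0.83 (-0.89 to -0.78), under the limit. CCND2 fell under trametinib (log2 -1.61, -1.68 to -1.54) and under the combination (log2 -1.76, -1.83 to -1.69). Unlike CCND1, it was only 1.11-fold lower in the combination than under trametinib alone (log2 -0.15, -0.24 to -0.07).

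CCND3 (cyclin D3, gene 896, chromosome 6, 41934933 to 42050035, minus strand) had 988, 935, 878 and 753 counts. The combination library was lowest, at a log2 fold change of -0.45 (-0.59 to -0.32). With NBT alone the value was -0.13 (-0.26 to 0.00) and under trametinib alone -0.18 (-0.32 to -0.05).

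The make-up of the D-cyclin RNA therefore differed between the libraries. The TPM of the 3 genes summed to 374.52 in the control, 212.77 under NBT, 113.05 under trametinib and 76.56 under the combination. CCND1 made up 56.0% of that sum in the control, 50.4% under NBT, 28.0% under trametinib and 9.73% under the combination. CCND3, the smallest share in the control at 14.05%, was the largest in the combination at 48.1%. CCND1 per CCND2, a ratio of TPM, was 1.87 (1.81 to 1.93) in the control, 1.78 (1.71 to 1.86) under NBT, 0.876 (0.818 to 0.938) under trametinib and 0.231 (0.205 to 0.260) under the combination.

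The E-type cyclins were the least abundant of the 10 genes in the control, and they were lowest in the combination library. CCNE2 (cyclin E2, gene 9134, chromosome 8, 94880224 to 94896693, minus strand) had 369 counts in the control, 257 under NBT, 326 under trametinib and 171 under the combination. It fell in the combination (2.25-fold, log2 -1.17, -1.44 to -0.91). With the single drugs its log2 fold changes were -0.57 (-0.81 to -0.34) for NBT and -0.19 (-0.41 to 0.03) for trametinib, neither past the limit. CCNE1 (cyclin E1, gene 898, chromosome 19, 29811991 to 29824312, plus strand) had 84, 67, 110 and 44 counts. The trametinib library was the highest and the combination the lowest, and the difference between these passed the test (2.57-fold, log2 -1.36, -1.91 to -0.86). Against the control the combination was just under the limit at a log2 fold change of -0.99 (-1.56 to -0.45). That side of the limit depended on the scaling, as the value was -1.01 with TMM factors, -1.02 with DESeq2 size factors and -1.01 on deposited TPM. At 44 to 110 counts, CCNE1 had the widest intervals of the 10 genes. The TPM ratio of CCNE2 to CCNE1 was 3.10 (2.44 to 3.98) in the control and 2.66 (1.90 to 3.80) in the combination.

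The kinases differed from the control by at most 1.12-fold in any library and were not called in any of the 5 comparisons. CDK4 (gene 1019, chromosome 12, 57747727 to 57752310, minus strand), which pairs with D cyclins, had 5626, 5766, 6104 and 5225 counts. Its log2 fold changes were -0.01 (-0.07 to 0.04), 0.10 (0.05 to 0.16) and -0.17 (-0.22 to -0.12) for NBT, trametinib and the combination. CDK6 (gene 1021, chromosome 7, 92604921 to 92836573, minus strand), its close relative, had 3901, 3812, 3974 and 3985 counts and log2 fold changes of -0.08 (-0.15 to -0.02), 0.01 (-0.05 to 0.08) and -0.03 (-0.10 to 0.03). These intervals leave room only for small changes between the libraries, apart from variation between cultures, which 1 library cannot show. CDK4 per CCND1 in TPM was 1.53 (1.48 to 1.58) in the control, 2.83 (2.73 to 2.95) under NBT, 10.7 (10.1 to 11.4) under trametinib and 37.3 (33.3 to 41.9) under the combination. Summed over the families, D cyclins per CDK4 and CDK6 were 1.05 in the control, 0.635 under NBT, 0.302 under trametinib and 0.246 under the combination.

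The inhibitors differed from each other. CDKN1A (p21, gene 1026, chromosome 6, 36676463 to 36687332, plus strand), which p53 and other factors induce, had 550 counts in the control, 958 under NBT, 1907 under trametinib and 2294 under the combination. All 3 treated libraries exceeded the control, and both under trametinib exceeded NBT alone. CDKN1A rose 3.43-fold under trametinib (log2 1.78, 1.64 to 1.92) and 3.99-fold under the combination (log2 2.0, 1.86 to 2.13). With NBT alone it was 1.68-fold higher (log2 0.75, 0.60 to 0.90), under the limit. The combination exceeded trametinib alone by 1.16-fold (log2 0.22, 0.13 to 0.31).

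CDKN1B (p27, gene 1027, chromosome 12, 12717368 to 12722369, plus strand), whose protein is controlled largely by degradation, had 635, 677, 1093 and 1008 counts. Its libraries fell into a lower pair without trametinib and a higher pair with it. The log2 fold changes were 0.04 (-0.12 to 0.20) for NBT, 0.77 (0.63 to 0.91) for trametinib and 0.60 (0.46 to 0.75) for the combination, all under the 2-fold limit.

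CDKN2C (p18, gene 1031, chromosome 1, 50960745 to 50974634, plus strand) had 446, 295, 779 and 408 counts. It was highest under trametinib alone and lowest under NBT alone, and the combination lay between. The log2 fold changes were -0.65 (-0.86 to -0.43) for NBT, 0.79 (0.62 to 0.96) for trametinib and -0.19 (-0.39 to 0.01) for the combination, with none past the limit. The combination against trametinib alone was also just under it, at -0.98 (-1.16 to -0.81).

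CDKN1A and CDKN1B together came to 55.3, 71.54, 139.12 and 147.51 TPM in the control, NBT, trametinib and combination libraries. Per TPM of D cyclin this was 0.148 in the control, 0.336 under NBT, 1.23 under trametinib and 1.93 under the combination. In the control the D-cyclin RNA was the more abundant, and in both libraries with trametinib the CIP/KIP RNA was. CDKN1A and CDKN1B were level in the control, at a TPM ratio of 0.985 (0.877 to 1.11), and the ratio was 2.58 (2.39 to 2.78) in the combination. These ratios are of RNA and say nothing of protein.

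**Figure D3:**
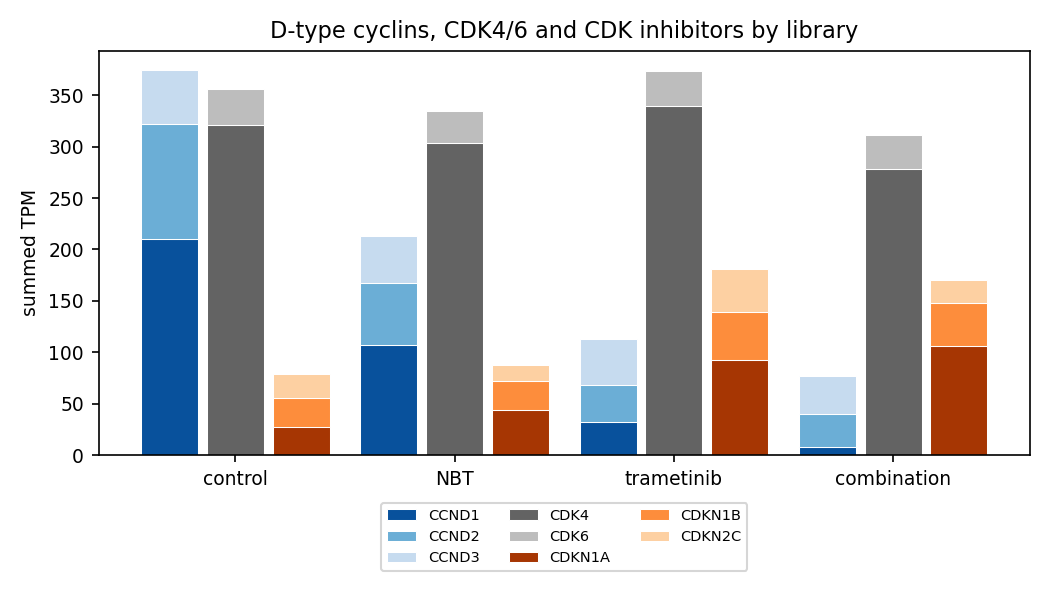
Summed TPM of the D-type cyclins (blue), CDK4 and CDK6 (grey) and the inhibitors CDKN1A, CDKN1B and CDKN2C (orange) in each library, with 1 library per condition and no error bars. The D-cyclin bar shrinks from 374.52 TPM in the control to 76.56 TPM in the combination, while the kinase bar stays between 311.2 and 373.82 TPM.

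The CDKN1A promoter is shown because this gene was the 1 inhibitor among the 10 genes that passed the limit. Promoter sequences came from RefSeq (GRCh38.p14), where 7 of the 10 genes had a window of 250 bases before a start site. The windows of CCND3, CCNE1, CDK4, CDK6, CDKN1A, CDKN1B and CDKN2C were searched on both strands for E2F sites (TTTCGCG and the variants with other middle letters, which are TTTGGCG, then the related form TTTCCCG, then the related form TTTGCCG), AP-1 sites (TGANTCA), the CRE (TGACGTC), the GC box (GGGCGG), ETS sites (CCGGAAG) and the E box (CACGTG). Bases inside any annotated exon were left out of the printed stretch. The CDKN1A stretch was chr6:36678464-36678657 on the plus strand and ends 56 bases before the RefSeq start site, with GC boxes in capitals.
CDKN1A: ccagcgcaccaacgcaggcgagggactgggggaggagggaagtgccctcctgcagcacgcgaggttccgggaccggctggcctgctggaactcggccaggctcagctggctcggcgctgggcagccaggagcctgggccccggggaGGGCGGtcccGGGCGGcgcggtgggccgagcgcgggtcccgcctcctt
It held 2 GC boxes, the whole 250-base window held 4, and neither held a match to the other motifs. In windows of other genes, motifs besides the GC box were matched in CCND3 (ETS), CDK4 (E box) and CDKN2C (CRE and E box). Not all of these matches lay outside annotated exons. A GC box occurs in 42.6% of the 35116 promoter windows of the table, against 7.33% for E2F, 6.57% for AP-1, 3.12% for the CRE, 8.52% for ETS and 6.34% for the E box. A match is a description of the letters and not evidence of binding.

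Adding NBT to trametinib changed 2 of the 10 genes, CCND1 and CCNE1, both lower, with 6.37% of 16345 genes called in that comparison. CCND1 fell 4.21-fold below trametinib alone (log2 -2.07, -2.26 to -1.90), from 1315 to 323 counts. The CCNE1 call was lost at an assumed coefficient of variation of 0.2, and both were lost at 0.4. CCNE2 was 1.97-fold lower (log2 -0.98, -1.26 to -0.71) and CDKN2C 1.98-fold lower, both short of the limit. These 2 genes were added at 1.5-fold, at which 14.9% of all genes were called. The median over the 10 genes was -0.27, beside -0.05 over all genes tested. Adding trametinib to NBT changed 2 of 10, CCND1 lower (14.6-fold, log2 -3.87, -4.04 to -3.71) and CDKN1A higher (2.37-fold, log2 1.25, 1.14 to 1.36), with 4.54% of 16253 genes called. The CDKN1A call was lost at an assumed value of 0.2, whereas CCND1 was called at 0.2 and at 0.4. CCND2 was 1.90-fold lower there (log2 -0.93, -1.0 to -0.85), under the limit. At 1.5-fold, CCND2 and CCNE2 (both lower) were added, with 9.45% of all genes called. The median was -0.24, beside 0.03 over all genes.

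To ask whether the drugs together did more than the product of their single effects, the log2 fold change of the combination was set against the summed log2 fold changes of NBT alone and trametinib alone. For CCND1 the sum was -3.60 and the combination -4.77, a departure of -1.17 (-1.35 to -0.99), which is 2.25-fold lower than the product. CCNE1 had a sum of 0.00 and a departure of -0.99 (-1.67 to -0.31). CCND2 departed the other way, by 0.68 (0.58 to 0.78), so that it was less reduced than the product of the single effects. CDKN1A was also less changed than the product, with a departure of -0.53 (-0.71 to -0.36) from a sum of 2.53. The departures of the other 6 genes lay between -0.41 for CCNE2 and 0.04 for CDK6. With a limit of 1 on the log2 scale, 1 of the 10 genes departed, beside 253 of 11367 genes (2.23%) with enough counts, of which 154 (1.35%) lay below the product. The interval of CCND1 reaches above -1, and variation between cultures was not measured.

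**Figure D4:**
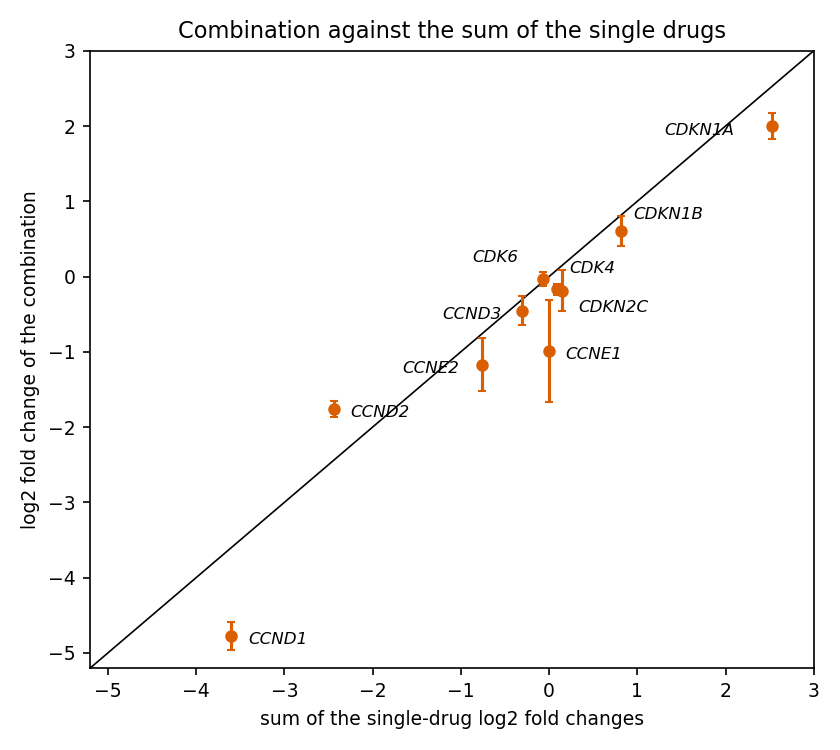
Log2 fold change of the combination against the sum of the single-drug log2 fold changes for the 10 genes, with the line of equality and the 95% counting interval of the departure as bars. CCND1 lies below the line by 1.17 and CCND2 above it by 0.68.

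Transcript estimates showed differences that the gene totals did not. CCND1, CCND2, CDK4 and CDKN1B had 1 transcript each. For CDK6, NM_001145306.2 made up 41.6% of the gene's TPM in the control, 69.1% under NBT, 32.7% under trametinib and 74.1% under the combination. Its level was 14.47, 21.69, 11.29 and 24.56 TPM, and that of NM_001259.8 was 19.38, 8.75, 22.72 and 8.60 TPM. The former was the larger in both libraries with NBT and the latter in both without it. Against the control, NM_001259.8 had log2 fold changes of -1.08 (-1.19 to -0.98) under NBT, 0.25 (0.17 to 0.34) under trametinib and -1.13 (-1.24 to -1.03) under the combination. NM_001145306.2 had values of 0.65 (0.56 to 0.74), -0.33 (-0.44 to -0.23) and 0.80 (0.71 to 0.89). Each transcript took 112 counts per TPM in the control, so their modelled lengths were nearly equal, and only reads from the parts they do not share can separate them. The split is the authors' estimate, its own error is not among the values used here, and these intervals cover counting only.

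By GENCODE v29, whose RefSeq matches carry other version numbers, NM_001145306 starts at base 92836594 of chromosome 7 and NM_001259 at base 92833917, both on the minus strand. The sequences upstream of these 2 start sites are shown because the 2 transcripts differed from the control in opposite directions in each library. Both are from RefSeq promoter windows outside annotated exons, at chr7:92836595-92836823 for the first and chr7:92833960-92834209 for the second, read on the minus strand, with GC boxes on either strand in capitals.
CDK6 start of NM_001145306: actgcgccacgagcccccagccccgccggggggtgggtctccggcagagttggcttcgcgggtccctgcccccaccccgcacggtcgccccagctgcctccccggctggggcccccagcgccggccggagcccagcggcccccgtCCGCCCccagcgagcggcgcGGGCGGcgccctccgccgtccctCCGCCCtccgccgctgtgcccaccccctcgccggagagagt
CDK6 start of NM_001259: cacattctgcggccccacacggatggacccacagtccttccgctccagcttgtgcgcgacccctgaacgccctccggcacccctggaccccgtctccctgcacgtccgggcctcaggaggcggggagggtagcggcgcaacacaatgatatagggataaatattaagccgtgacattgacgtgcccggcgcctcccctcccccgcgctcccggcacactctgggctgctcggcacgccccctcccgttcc
The first held 3 GC boxes and the second held none of the motifs searched, which says only that these letters are not in that window. The second stretch ends next to the RefSeq start site at base 92833959. Bases between that site and the GENCODE start at 92833917 are not in it.

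CDKN2C also had 2 transcripts. NM_001262.2, the larger, was at 21.70, 12.25, 35.53 and 16.41 TPM in the control, NBT, trametinib and combination libraries. NM_078626.3 was at 2.14, 3.43, 6.57 and 6.33 TPM, from 19, 34, 62 and 62 counts. The smaller transcript was higher than the control in all 3 treated libraries, with log2 fold changes of 0.77 (-0.06 to 1.68), 1.67 (0.93 to 2.52) and 1.62 (0.88 to 2.47), whereas the larger was below the control in both libraries with NBT. For CCND3, NM_001760.5 stayed between 35.54 and 40.73 TPM, while the model transcript XM_011514971.2 went from 186 counts in the control to 84 under NBT, 42 under trametinib and 21 under the combination (log2 -1.19, -2.15 and -3.18). Its share of CCND3 TPM went from 20.15% to 3.09%. NM_000389.5 made up between 87.8% and 95.7% of CDKN1A. For CCNE2, NM_057749.2 had 190 counts in the control, 193 under NBT, 198 under trametinib and 171 under the combination (log2 -0.21 in the combination, -0.52 to 0.09). The rest of CCNE2 was assigned to the model transcripts XM_011517366.2 (24, 15, 50 and 0 counts), XM_017013958.1 (97, 0, 42 and 0) and XM_017013959.1 (59, 50, 37 and 0). In this split the model transcripts were all at 0 in the combination, and NM_057749.2 changed little. As for CDK6, the splits of these genes are the authors' estimates, and their own error is not among the values used here. Whether the fall of CCNE2 lay in particular transcripts thus cannot be told. For CCNE1, the estimates put between 0 and 81 counts on each of 4 transcripts, and 3 of the 4 were at 0 in at least 1 library.

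**Figure D5:**
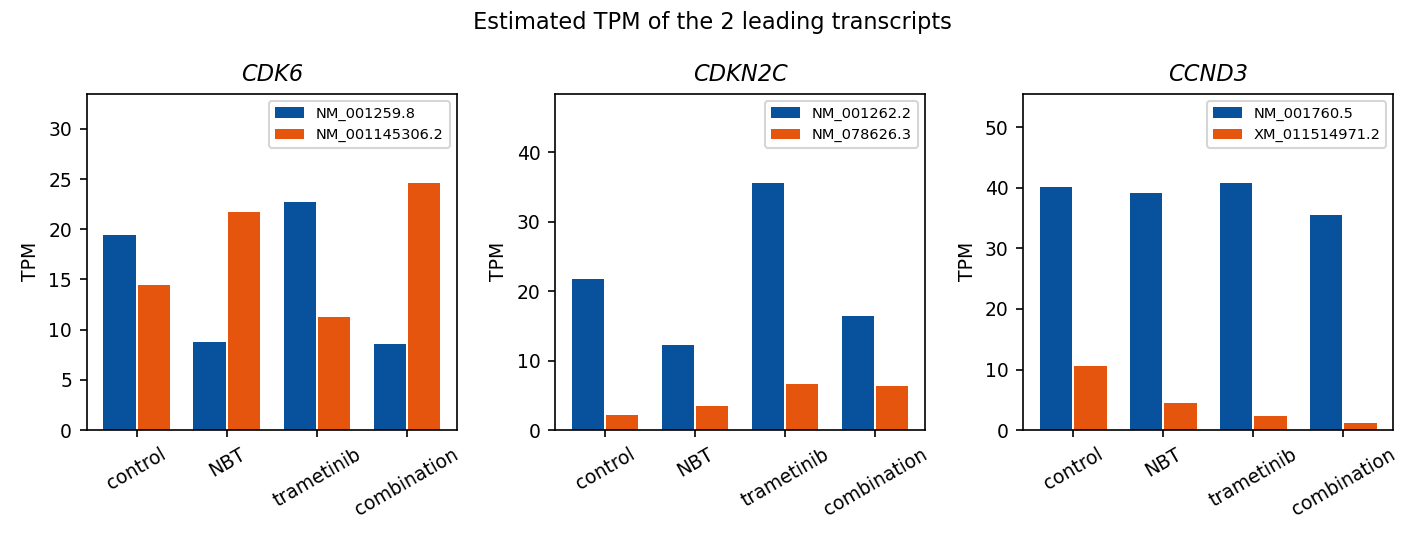
Estimated TPM of the 2 leading RefSeq transcripts of CDK6, CDKN2C and CCND3 in each library (1 library per bar, no error bars). In CDK6 the taller bar is NM_001259.8 in the control and trametinib libraries and NM_001145306.2 in the NBT and combination libraries.

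Of the 5 other CDK inhibitors, 0 were called under NBT, 1 under trametinib and 2 under the combination, beside 2.76%, 6.13% and 8.72% of all genes, and lists of this size give only coarse shares. CDKN2B (p15, an INK4 inhibitor) had 106 counts in the control, 71 under NBT, 426 under trametinib and 253 under the combination, and rose under trametinib (log2 1.99, 1.68 to 2.31) and under the combination (1.19, 0.86 to 1.53). CDKN2D (p19, another INK4 inhibitor) had 105, 57, 139 and 46 counts and fell in the combination (-1.24, -1.79 to -0.74). Like CDKN2B and CDKN2C, it was highest under trametinib alone and was lower in each library with NBT than in its partner without it. CDKN1C (p57) had at most 3 counts. Among 13 other cyclins and CDKs of interphase, such as CDK2, CCNA2 and CDK7, 0 of 13 were called by the binomial test in any of the 5 comparisons. Between 2.76% and 8.72% of all genes were called in those comparisons, so 0 of 13 lies near the share over all genes. CDK2, the partner of cyclin E, had 1760, 1519, 1978 and 1290 counts.

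Of the 13 genes of the RB family, E2F and DP factors, 1 fell under NBT (E2F8), 0 changed under trametinib and 2 fell under the combination (E2F1 and E2F8), beside 2.76%, 6.13% and 8.72% of all genes called in either direction. E2F1, an activator of S phase genes, had 1061, 832, 996 and 341 counts (log2 -1.70 in the combination, -1.88 to -1.52). E2F8, a repressor, had 631, 253, 645 and 225 counts, so that both libraries with NBT were low. E2F7, the other atypical repressor, had 1414, 2804, 899 and 2257 counts and was higher in the combination than under trametinib alone (log2 1.28, 1.17 to 1.39). In that comparison 3 genes of the list were lower, namely E2F1 (-1.59), E2F2 (-1.10) and E2F8 (-1.57), with 6.37% of all genes called. E2F1 was also called lower in the combination than under NBT alone (-1.30), with 4.54% of all genes called. RB1 itself had 1111, 1070, 1125 and 995 counts.

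Of 12 E2F target genes of S phase entry, 0 were called with either drug alone and 3 fell under the combination, beside 8.72% of all genes called there. They were CDT1 (a replication licensing factor), PCNA (the polymerase clamp) and TYMS (thymidylate synthase). PCNA had 2706, 2182, 2874 and 1281 counts (log2 -1.14 in the combination, -1.24 to -1.05). Against trametinib alone, PCNA (-1.22) and TYMS (-1.02) were called lower in the combination, with 6.37% of all genes called. The median of the list was -0.37 under NBT, -0.14 under trametinib and -0.86 under the combination, beside -0.01, 0.08 and 0.05 over all genes tested. CCNE2, itself an E2F target, showed the same order of values. CDC6 went against the others, with 1299, 1986, 1194 and 2128 counts.

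Of 11 genes for the turnover of G1 cyclins and inhibitors, 1 fell under the combination, a share near the 8.72% of all genes called there. This was SKP2, the F-box protein that targets p27 for degradation, with 1892, 1429, 1899 and 851 counts (log2 -1.22, -1.33 to -1.10). SKP2 was also called lower in the combination than under trametinib alone (log2 -1.21, -1.33 to -1.09), with 6.37% of all genes called there. USP2, a deubiquitinase of cyclin D1, was higher in the combination than under NBT alone, from 19 to 59 counts. In that comparison 4.54% of all genes were called. Of 4 genes for FOXO factors and FOXM1, known to regulate CDKN1B and cell cycle genes, 0 were called by the binomial test in any of the 5 comparisons. With 2.76% to 8.72% of all genes called in them, 0 of 4 cannot be told from the share over all genes.

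Of 12 p53 target genes other than CDKN1A, 1 rose under NBT (SESN2), 3 rose under trametinib (BTG2, TP53I3 and BBC3) and 4 rose under the combination (BTG2, GADD45A, SESN2 and BBC3), beside 2.76%, 6.13% and 8.72% of all genes called in either direction. Below 0 lay 6 of the 12 under NBT, 3 under trametinib and 3 under the combination. Against trametinib alone, GADD45A and SESN2 were called higher in the combination, with 6.37% of all genes called. TP53INP1 was called lower there (log2 -2.26, from 25 to 5 counts). Against NBT alone, BTG2 and GADD45A were called higher, with 4.54% of all genes called. GADD45A, which also binds PCNA and p21, had 382, 790, 701 and 1951 counts (log2 2.29 in the combination, 2.13 to 2.45). MDM2, the feedback regulator of p53, had 1345, 1583, 1405 and 1698 counts, at log2 fold changes of 0.19, 0.05 and 0.27, with none past the limit. Some of these genes, SESN2 and GADD45A among them, also respond to other stress pathways.

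For each of the 4 genes called against the control, the genes with the nearest pattern were sought by the distance between the 3 log2 fold changes against the control, among 10661 genes with at least 100 counts in their highest library. CCND1 had no close neighbour, the nearest being TGM2 and FST at a distance of 1.09 each and HAS3 at 1.28. CCND2 lay near PMEPA1 (0.098), LTBP3 (0.101) and NTNG2 (0.190). CCNE2 lay near CDT1 (0.051), ZNF341 (0.058) and TONSL (0.064). CDKN1A lay near TLCD2 (0.258), RNASE4 (0.296) and PNRC1 (0.342). These distances rest on 3 values from 4 libraries that share the control.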

How the data were processed

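RNA from 4 libraries labelled MIA PaCa-2 was sequenced on the BGISEQ-500 platform. Cells had been treated for 12 h, and the extraction notes name TRIzol, depletion of 23S and 16S rRNA, and random priming. 23S and 16S are names of bacterial rRNAs, so it is not known whether these notes describe these libraries. The authors deposited estimated counts, which are not normalized, together with TPM values (scaled to length and library sum) and FPKM values (scaled to length and mapped fragments), per gene and for 70268 RefSeq transcripts. The submitters' processing notes name Bowtie2 2.2.5, RSEM 1.2.8 and hg38, with no role or order given. The study's text names FPKM and PossionDis.

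Estimated counts were rounded (4 of the 10 genes had values that were not whole) and scaled to library sums. Log2 ratios used 0.5 added reads. Pairs of libraries were compared by exact two-sided binomial tests. Genes needed 1 count in 1 of the pair to be tested, and adjustment followed Benjamini and Hochberg. A call needed a false discovery rate up to 0.05 and a log2 ratio of 1 or more in either direction, limits taken from the study's methods. No p-value is given, because 1 library per condition has no replicates. Intervals are 95% Clopper-Pearson for ratios of counts, exact Poisson for levels and Wald for departures from the product of single effects, which needed 50 counts in at least 1 library. PCR reads are not independent molecules, so intervals cover counting error only. FPKM values were not tested. Scripts were tested on simulated data.

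The named genes were the 10 genes described, those called in the gene lists, and the 3 nearest patterns of each gene called against the control. The genes and lists were chosen with earlier results of these data known. Alternatives were edgeR 4.0.16 TMM factors, DESeq2 1.42.0 size factors, deposited TPM with 0.1 added, 5 added reads, summed transcript counts, a minimum of 10 counts, other fold limits, and an edgeR negative binomial exact test in which the coefficient of variation was set to 0.2 or 0.4. Analyses were run in R 4.3.3 and Python 3.11.15 (scipy 1.17.1). Start sites were taken from GENCODE v29 and gene positions from RefSeq, both on GRCh38.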

Additional observations from a re-analysis of the deposited data

Results flagged for a closer look

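For CCND1 the effect of one drug differed with the other present. The combination was lower than the product of the single-drug effects by a log2 value of -1.17 (95% counting interval -1.35 to -0.99), from 8472 counts in the control, 4693 under NBT, 1315 under trametinib and 323 under both. For CDK4 the effect of trametinib had opposite directions without and with NBT, at a log2 fold change of 0.10 without it and -0.16 with it. Both CDK4 values are small, and neither result was tested against variation between cultures, since each condition had 1 library.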

How the results depend on the processing

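No paired analysis was possible because each condition had 1 library, so no replicate could be paired or left out. Depth limited CCNE1 most, at 44 to 110 counts. Of 250 single-gene log2 values recomputed with other scalings, units, added reads or summed transcripts, 242 kept their direction and their side of the 2-fold limit. The 4 that changed direction were near 0, namely CDK6 with trametinib at -0.0416 (TMM factors), -0.0520 (DESeq2 size factors) and -0.0112 (deposited TPM), and CDKN1B with NBT at -0.0239 (deposited TPM). The 4 that passed the limit were CCNE1 in the combination, with the 3 values given above, and CCNE2 in the combination against trametinib on deposited TPM, at -1.14. The cause was not tested. No scaling moved the median of all genes by over 0.1.

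The counts of the 10 genes called moved with the fold limit and the assumed spread. At a log2 limit of 2, 1 gene (CCND1) was called with trametinib, with the combination, in the combination against trametinib and in the combination against NBT, and 0 departed from the product. At a limit of 1.5-fold, 4 were called with NBT, 5 with trametinib, 4 in the combination against trametinib and 4 in the combination against NBT, and 3 departed from the product (CCND1, CCND2 and CCNE1). When cultures were assumed to vary by 0.2 (coefficient of variation), 1 gene (CCND1) was called in the combination against trametinib and 1 (CCND1) in the combination against NBT. With 0.4, 0 were called with trametinib, 1 (CCND1) with the combination, 0 in the combination against trametinib and 1 (CCND1) in the combination against NBT. Over all genes, these counts also moved, from 439, 993, 1416, 1041 and 738 calls (NBT, trametinib, combination, combination against trametinib, combination against NBT) to 131, 371, 433, 275 and 269 at a log2 limit of 2, to 1124, 2012, 3112, 2428 and 1536 at 1.5-fold, to 69, 365, 547, 302 and 204 with the assumed value of 0.2, and to 4, 22, 51, 14 and 13 with 0.4.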
